A study of Mus musculus with 56 samples.

Results

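Mouse CD4 T cells grown at a high cell concentration were compared with cells grown at a low concentration, both taken 48 h after activation. The libraries were chosen by their labels alone and not by any measured value: 3 come from cultures started at 1000000 cells per ml and 3 from cultures started at 62500 cells per ml, together 6 of the 56 libraries of the series. Every culture held naive CD4 T cells from the spleens of C57BL/6 mice, in complete RPMI medium in 24-well plates, with beads bearing anti-CD3 and anti-CD28 and with no added cytokine. CD4 positive cells were then sorted whatever their CD62L and CD44. The study's title asks how cells acting together affect early memory differentiation. No source used here gives the bead-to-cell ratio, the cell number reached by 48 h, oxygen or the state of the medium, so concentration stands for all that moves with it in a well. Further groups of the same experiment are used for setting the 48 h values in time: both concentrations at 18, 30 and 72 h (3 libraries each, 2 for the low one at 72 h), unactivated naive cells (CD44 negative, CD62L positive), and CD44 positive cells of cultures started at 250000 cells per ml, sorted at 48 h as CD62L positive or negative.

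In a dense culture many cells draw on the same medium, and oxygen reaches the cell layer at the bottom of the well by diffusion. Cells sense oxygen through prolyl hydroxylases of the Egln family, which mark the factor HIF-1α for destruction by the Vhl ubiquitin ligase. When oxygen is short HIF-1α persists, enters the nucleus and induces glucose transporters, glycolytic enzymes and, as feedback, some of the hydroxylase genes themselves. Activated T cells also release IL-2 and interferons, which signal from cell to cell through STAT factors. In the days after activation some cells carry the surface marker CD62L, by which the study sorted them, and take on features of naive and central memory cells.

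The 3 high libraries held 1182242 to 2067509 counts and the 3 low ones 1707155 to 2481924, and ribosomal protein genes took 24.1 to 25.3% of them. Of 24421 gene symbols, 9239 passed the filter on low counts. Levels below are CPM (counts of a gene per 1000000 counts of its library, with TMM normalisation), differences are log2 values of high minus low ± SE from edgeR's quasi-likelihood test (n = 3 and 3), and a gene is called higher or lower at the high concentration where its Benjamini-Hochberg adjusted p over all 9239 genes was under 0.05. The variance between libraries of a group was 2.34 to 11.3 times that of counting alone. Nothing says that they came from separate mice or cultures, so p-values cover only the spread among the libraries at hand, which may be technical. On the first principal component of the 6 libraries, 57.3% of the variance, the high ones stood at -52.9, -30.8 and -21.3 and the low ones at 25.3, 40.6 and 39. The groups did not overlap there, and replicate 1 of the high group stood farthest out. Library titles carry a second number of unstated meaning, which is 2 in every high library and in low replicate 1, and 1 in low replicates 2 and 3. It cannot be fully told apart from concentration.

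At 48 h 2397 genes were called, 25.9% of those tested. Of these 1286 (13.9%) were higher and 1111 (12%) lower at the high concentration, and the median over all genes was 0.04. In 1751 genes (19%) the 3 high libraries all lay above the 3 low ones, and in 1509 (16.3%) all below. With a term for the second number 1827 genes were called. With low replicate 1 as the only low library, assumed to vary like the other groups, 917 were called, and with the fit restricted to the compared groups 1488.

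**Figure D1:**
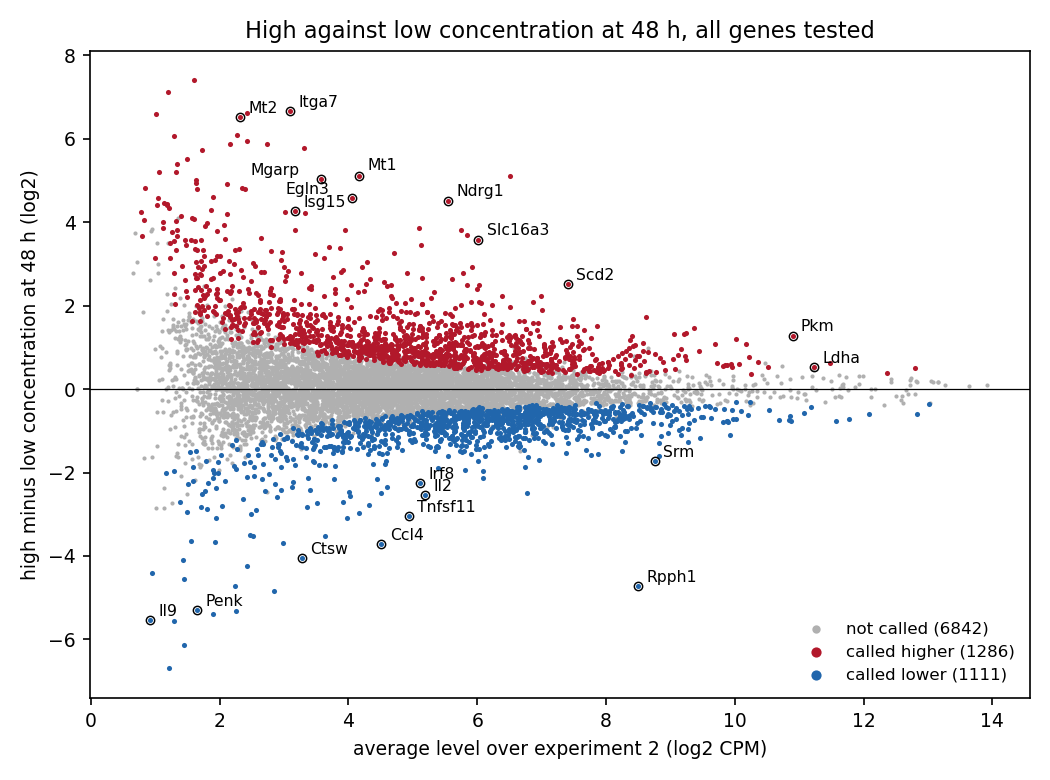
Each point is 1 of 9239 genes: the average level over the experiment (horizontal, log2 CPM) against the difference of high minus low at 48 h (vertical, log2). Coloured points are the 1286 genes called higher and the 1111 called lower, and the labelled genes are among those described in the text, with Mt2, Itga7 and Mgarp towards the top and Il9, Penk and Rpph1 towards the bottom.

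Genes known to be induced at low oxygen were mostly higher. Of 24 such genes tested 20 were called higher and none lower, with a median of 2.80 against 0.04 over all genes; 13.9% of all genes were called higher. Egln3, the hydroxylase gene that HIF itself induces, stood at 202, 180 and 183 CPM in the high libraries and at 6.78, 8.63 and 8.03 CPM in the low ones. The groups lay far apart, with little spread within either.

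Bnip3, which directs mitochondria to autophagy, stood at 76.4, 173 and 239 CPM in the high libraries and at 10.9, 8.06 and 14.1 CPM in the low ones (3.86 ± 0.33). The groups lay apart, and high replicate 1 was the lowest of its group. Vegfa, the vascular growth factor gene, had 64.6, 63.2 and 49.6 CPM at high and 5.21, 4.03 and 3.21 CPM at low concentration (3.82 ± 0.37). P4ha2, a collagen prolyl hydroxylase subunit gene, had 55.4, 58.3 and 33.2 CPM against 2.09, 0 and 0.402 CPM (5.76 ± 0.44). It was close to absent from the low libraries. Anxa2, annexin A2, a membrane-binding protein, had 226, 279 and 277 CPM against 21.4, 17.3 and 21.3 CPM. Its groups were each tight and lay far apart. Mgarp, a mitochondrial protein gene, had 69.7, 88.1 and 89.2 CPM against 2.09, 3.45 and 2.01 CPM (5.03 ± 0.36), and Ddit4, an inhibitor of mTORC1, was higher by 2.08 ± 0.17.

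The sensors divided. Of 8 oxygen-sensing genes 3 were called higher: Egln3 (4.58 ± 0.22), Egln1 (1.51 ± 0.22) and Vhl (0.92 ± 0.27), whose groups overlapped and whose call was lost without high replicate 3, low replicate 2 or low replicate 3. Egln2, the family member not known as a HIF target, was at 0.55 ± 0.22 and not called. Hif1a itself had 13.4, 42.5 and 39.6 CPM at high and 28.7, 44.9 and 24.5 CPM at low concentration, a difference of 0.03 ± 0.36. Its groups overlapped fully, and HIF-1α is controlled mainly as a protein, which was not measured.

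**Figure D2:**
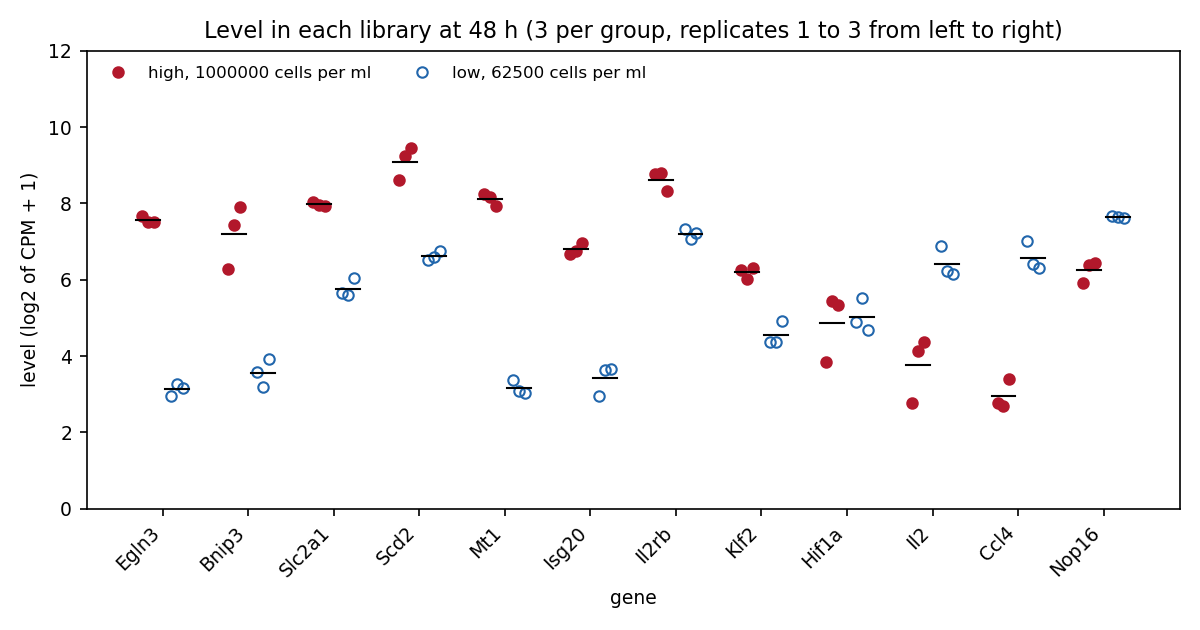
Level of 12 genes in each of the 6 libraries, as log2 of CPM plus 1, with high-concentration libraries as filled circles and low ones as open circles; short lines are the means of the 3 plotted values. The groups do not overlap in 11 of the genes (8 higher and 3 lower at the high concentration), and they overlap in Hif1a.

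The core of the hypoxia response element, ACGTG, lies on either strand of the 250 bases before the transcription start in 12 of the 18 hypoxia-induced genes that have a window in the RefSeq promoter table (build GRCm38.p6), against 26.3% of 7098 tested genes with a window and 16.6% of all windows of that length in the table. Of the glycolytic enzyme genes 6 of 15 hold it. Windows of 4 genes that were higher at the high concentration are shown around their matches, with the letters of ACGTG, or of CACGT on the other strand, in capitals. Egln3 is at chr12:54204079-54204123 on the minus strand, Bnip3 at chr7:138909589-138909634 on the minus strand, Mgarp at chr3:51396742-51396786 on the minus strand, and the lactate exporter gene Slc16a3 at chr11:120949020-120949066 on the plus strand, where the motif occurs at 2 places.
Egln3: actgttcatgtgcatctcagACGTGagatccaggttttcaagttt
Bnip3: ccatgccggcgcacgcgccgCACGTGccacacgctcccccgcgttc
Mgarp: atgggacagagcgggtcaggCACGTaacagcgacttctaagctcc
Slc16a3: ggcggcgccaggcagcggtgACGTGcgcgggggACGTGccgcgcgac
In Bnip3 the motif reads the same on both strands and counts as 2 matches. A match describes the letters only; binding was not measured.

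Most genes of sugar uptake and its breakdown to lactate were higher. All 4 transport genes tested were called higher, with a median of 2.90. Slc2a3, a high-affinity glucose transporter gene, had 322, 348 and 348 CPM at high and 20.3, 21.9 and 29.3 CPM at low concentration. Slc2a1, the main transporter of activated T cells, had 263, 250 and 244 CPM against 49.5, 47.2 and 64.7 CPM (2.22 ± 0.18). Both transporter genes varied little within a group, and the high libraries all lay above the low ones. Slc16a3, which exports lactate, had 538, 471 and 352 CPM against 49.5, 33.9 and 30.5 CPM (3.58 ± 0.24).

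Of 15 glycolytic enzyme genes 12 were called higher and 1 lower, with a median of 1.10. Gpi1, which makes fructose 6-phosphate, had 737, 675 and 620 CPM at high and 355, 305 and 289 CPM at low concentration (1.10 ± 0.14). Aldoa (aldolase) was higher by 1.07 ± 0.14, Tpi1 (triosephosphate isomerase) by 1.31 ± 0.17 and Pkm (pyruvate kinase) by 1.28 ± 0.22. These differences were smaller than those of Slc2a3, Slc2a1 and Slc16a3. The fourth gene of the transport list, Bsg, the chaperone of lactate transporters, was higher by 0.62 ± 0.18, a call that ended without high replicate 1 or with a term for the second number. Ldha, lactate dehydrogenase, was at 3314, 3532 and 3495 CPM against 2551, 2221 and 2363 CPM (0.54 ± 0.12), so it was abundant in both groups. Several of these genes have pseudogene copies, and no source used here says how reads were shared among copies. Gapdh, 1 of the 12 called higher, had 766, 916 and 842 CPM at high and 10.9, 58.7 and 7.23 CPM at low concentration. Its adjusted p in edgeR was 0.0455, the SE 1.87, and leaving out any 1 library ended the call. Within single groups at other times it also ranged widely: the high libraries of 18 h had 7.45, 8.21 and 658 CPM, the low ones of 18 h 689, 1070 and 8.92 CPM, and the high ones of 30 h 9.36, 11.5 and 597 CPM. What moves its level within a group was not tested. Eno3, the muscle form of enolase, went the other way, at 56.3, 49.2 and 34.1 CPM against 161, 197 and 177 CPM (-1.96 ± 0.18).

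In the list of pyruvate metabolism and side branches of glycolysis 7 of 17 genes were called higher and 4 lower, with a median of 0.29. The 4 with the smallest p all act on glycogen or its sugar phosphates. Gys1, glycogen synthase, had 83.1, 60.1 and 39.6 CPM at high and 12.5, 6.33 and 6.83 CPM at low concentration (2.81 ± 0.32), and the branching enzyme gene Gbe1 was higher by 2.32 ± 0.29. Pygl, glycogen phosphorylase, had 26, 17.6 and 18.2 CPM against 2.09, 0 and 0 CPM (4.80 ± 0.61). Pgm2, a phosphoglucomutase gene, was higher by 2.08 ± 0.20. The high libraries lay above the low ones in Gys1 and Pygl.

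Mitochondrial genes differed less and in the other direction. Of 30 respiratory chain and ATP synthase genes 7 were called lower and none higher, with a median of -0.25; 12% of all genes were called lower. Atp5g1, a subunit of the ATP synthase ring, had 213, 230 and 226 CPM at high and 555, 402 and 400 CPM at low concentration (-1.02 ± 0.17), and Cyc1, cytochrome c1, was at -0.86 ± 0.15. Of 13 tricarboxylic acid cycle genes 6 were called lower and none higher, with a median of -0.35. Idh3a, an isocitrate dehydrogenase subunit gene, had 57.9, 110 and 114 CPM against 191, 231 and 255 CPM (-1.24 ± 0.18), and Mdh2, malate dehydrogenase, was at -0.59 ± 0.12. In each of these 4 genes the high libraries all lay below the low ones.

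Lipid synthesis genes were higher at the high concentration. Of 21 cholesterol synthesis genes 14 were called higher and none lower (median 0.92), and of 12 fatty acid synthesis genes 9 and none (median 1.13). Fdps, which makes farnesyl diphosphate, had 386, 414 and 364 CPM at high and 103, 122 and 138 CPM at low concentration (1.68 ± 0.14). Scd2, a fatty acid desaturase, had 388, 603 and 696 CPM against 90.2, 96.1 and 108 CPM (2.52 ± 0.18). In both genes the lowest high library lay well above the highest low one. Hmgcs1, which acts early in making mevalonate, differed by 1.27 ± 0.14, Acly, which makes cytosolic acetyl-CoA, by 1.12 ± 0.16, and Srebf1, a regulator of lipid synthesis, by 1.37 ± 0.21. Sqle, squalene epoxidase, did not differ beyond its spread (0.04 ± 0.20). The sterol response element TCACNCCAC was found on either strand of the 250-base window in 1 of 15 cholesterol genes and 0 of 9 fatty acid genes, against 1.24% of tested genes.

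Genes of the amino acid response, which the factor ATF4 drives when amino acids run short or the secretory pathway is stressed, were split in size. Of 25 tested 12 were called higher and none lower, and the median was 0.30. Ddit3, a stress transcription factor gene also known as Chop, had 128, 119 and 108 CPM at high and 21.4, 14.4 and 19.7 CPM at low concentration (2.66 ± 0.21), with the groups well apart. Trib3, a pseudokinase gene of the same response, had 85.6, 63.8 and 71 CPM against 8.86, 8.63 and 3.61 CPM (3.41 ± 0.28). Chac1, which degrades glutathione, was counted 82 times at high and 2 times at low concentration, which is 50.1-fold (95% counting interval 13.4 to 420.3). Asns, asparagine synthetase, was higher by 1.77 ± 0.27, while Atf4 itself was at 0.29 ± 0.12 and not called. The composite CEBP-ATF element TGATGNAA lies before the start of 4 of the 21 list members with a window, against 2.32% of tested genes. It is shown in capitals for Chac1, where it is on the other strand (chr2:119351029-119351076, plus strand), and for Asns (chr6:7693210-7693252, minus strand).
Chac1: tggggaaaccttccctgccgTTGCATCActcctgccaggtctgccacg
Asns: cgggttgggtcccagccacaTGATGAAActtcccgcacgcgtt

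Metallothioneins, small proteins that bind zinc and copper, had some of the largest differences. Mt1 had 304, 286 and 244 CPM at high and 9.38, 7.48 and 7.23 CPM at low concentration. Mt2 had 149, 127 and 107 CPM against 2.61, 1.15 and 0.402 CPM (6.51 ± 0.46). In both genes the libraries of the high group varied little, and Mt2 had only 8 counts over the 3 low libraries, against 49 for Mt1. The 13 metallothionein and zinc genes together gave no such pattern, with 3 higher, 1 lower and a median of -0.06: among the zinc transporter genes Slc30a4 was higher and Slc39a14 lower, both in few counts and with calls that ended without high replicate 3 or low replicate 1, and the other 9 were not called. The metal response core, TGCGCNC or TGCACNC on either strand, is in 6 of 11 list windows against 34.7% of tested genes, and is shown in capitals for the gene with the larger counts, Mt1 (chr8:94179046-94179088, plus strand).
Mt1: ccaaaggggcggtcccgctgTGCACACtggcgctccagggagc

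Growth genes were lower. Of 30 ribosome biogenesis genes 22 were called lower and none higher (median -0.77), and of 14 genes of polyamine and nucleotide synthesis 10 and none (median -0.70). Nhp2, of the small nucleolar particles that modify ribosomal RNA, had 442, 396 and 404 CPM at high and 850, 1058 and 1073 CPM at low concentration (-1.26 ± 0.14). Nop16, a nucleolar protein gene, had 59.6, 83.2 and 85.1 CPM against 201, 199 and 196 CPM (-1.37 ± 0.16). The low libraries were nearly equal in Nop16 and all far above the highest high one. Odc1 and Cad, which start polyamine and pyrimidine synthesis, were at -1.01 ± 0.20 and -1.17 ± 0.17, and Ctps, CTP synthase, at -1.07 ± 0.19. Myc, the growth regulator, had 156, 146 and 136 CPM against 166, 96.1 and 94.8 CPM, a difference of 0.30 ± 0.22, and low replicate 1 exceeded every high library. The cytosolic ribosomal protein genes themselves stayed near the centre, with 3 of 78 called higher, 7 lower and a median of 0.02.

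Most chaperone genes were lower too. Of 16 heat shock and cytosolic chaperone genes 10 were called lower and none higher (median -0.63). Hspd1, the mitochondrial chaperonin, had 238, 241 and 268 CPM at high and 673, 680 and 741 CPM at low concentration (-1.48 ± 0.14), and Hsph1, a partner of Hsp70, was at -1.46 ± 0.17. Of 15 oxidant defence genes 6 were called lower, among them Gpx1, glutathione peroxidase (-1.18 ± 0.15), and 2 higher.

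Some DNA replication genes were lower at this time, while mitosis genes gave 1 call. Of 28 DNA replication genes 7 were called lower and none higher (median -0.13), and of 23 mitosis genes 1, Kif23, was called higher (0.50 ± 0.19, a call that 5 of the 6 single-library omissions ended) and none lower. Gins2, of the replicative helicase, had 174, 197 and 184 CPM at high and 284, 250 and 244 CPM at low concentration (-0.48 ± 0.13). Rrm1, of ribonucleotide reductase, had 306, 323 and 353 CPM against 407, 462 and 520 CPM (-0.50 ± 0.14), a call that ended without low replicate 3. Top2a, topoisomerase II of dividing cells, was at 0.40 ± 0.16 and not called. Inhibitors of the cycle diverged: Cdkn1a (p21) had 74.7, 118 and 124 CPM against 180, 232 and 218 CPM (-0.98 ± 0.18), while Cdkn2d (p19) had 137, 160 and 141 CPM against 66.7, 73.1 and 75.1 CPM (1.02 ± 0.20). Mxd3, a partner of Max that opposes Myc, was higher by 1.41 ± 0.20. Of the 8 Myc network genes tested 2 were called higher and 1, another Mxd gene, lower, against 13.9% and 12% of all genes.

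Cdkn1a was 1 of 8 p53 target genes called lower among 17, with none higher and a median of -0.65. Ccng1, cyclin G1, had 29.4, 60.8 and 82.8 CPM at high and 147, 254 and 247 CPM at low concentration (-1.86 ± 0.27). Bax, a death effector, had 296, 297 and 198 CPM against 490, 525 and 450 CPM (-0.89 ± 0.15). The high libraries lay below the low ones in both.

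**Figure D3:**
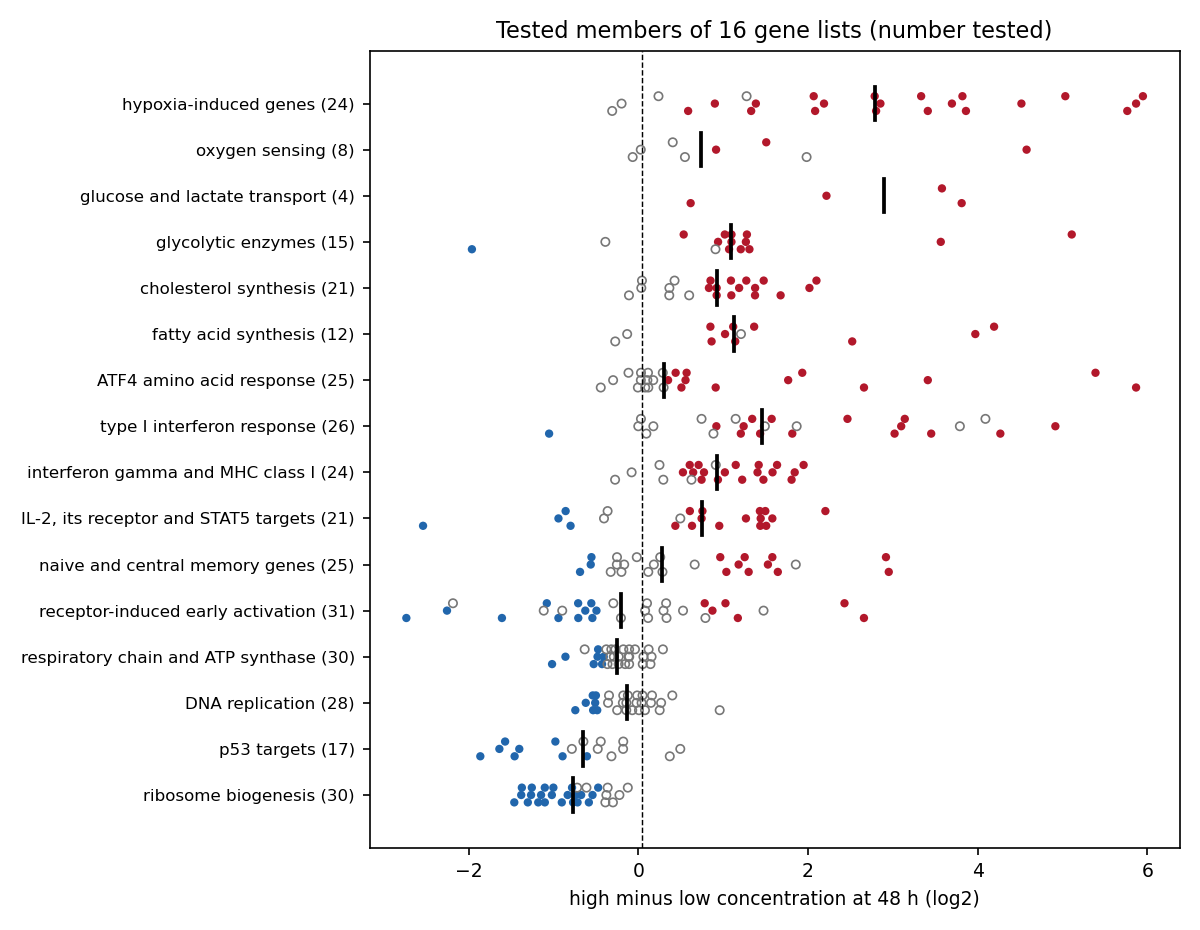
Difference of high minus low at 48 h (log2) for every tested member of 16 gene lists; filled points passed the test and open points did not, vertical bars are list medians and the dashed line is the median of all 9239 genes, 0.04. Hypoxia-induced genes have a median of 2.80 with 20 of 24 higher, and ribosome biogenesis genes a median of -0.77 with 22 of 30 lower.

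Interferon-induced genes were higher. Of 26 type I interferon response genes 14 were called higher and 1 lower (median 1.46, or 1.32 with members of few counts at their ratio), and of 24 genes of the interferon gamma response and MHC class I 18 were higher and none lower (median 0.93). Isg15, a ubiquitin-like modifier, had 36.1, 25.5 and 28.2 CPM at high and 2.09, 1.15 and 1.2 CPM at low concentration. Isg20, an exonuclease, had 101, 107 and 123 CPM against 6.78, 11.5 and 11.6 CPM (3.45 ± 0.23). Irf7, the factor that amplifies type I interferon, had 25.2, 19.4 and 18.7 CPM against 2.09, 2.88 and 2.01 CPM (3.14 ± 0.38). Naive cells averaged 257 CPM of Irf7, so neither activated group reached the naive level. Stat2, a subunit of the interferon-activated factor, was higher by 1.57 ± 0.27, and Bst2 (tetherin) was the exception at -1.05 ± 0.16.

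For presentation on MHC class I, Nlrc5, its transactivator, had 63, 86.9 and 88.8 CPM at high and 21.9, 15 and 24.5 CPM at low concentration (1.95 ± 0.22). Psmb9, of the immunoproteasome, had 357, 362 and 315 CPM against 161, 117 and 109 CPM (1.42 ± 0.17), and Tap1, the peptide transporter, was higher by 1.15 ± 0.16. The high libraries all lay above the low ones in these 3 genes. Irf1, a factor upstream of them, was higher by 1.81 ± 0.22. Ifng, the gene for interferon gamma, had 0 counts in all 6 libraries, and so low a count puts no value on its difference. The interferon-stimulated response element, searched as GAAA and again GAAA after any 2 bases on either strand, lies in 8 of 17 windows of the type I list and 9 of 20 of the interferon gamma and MHC list, against 3.31% of tested genes. Matches are in capitals for Isg15 (chr4:156200855-156200916, minus strand, 3 overlapping matches) and Stat2 (chr10:128270256-128270305, plus strand, with the motif on the other strand).
Isg15: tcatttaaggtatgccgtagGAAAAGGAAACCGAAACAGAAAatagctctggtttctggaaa
Stat2: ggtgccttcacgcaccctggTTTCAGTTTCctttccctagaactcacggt

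Il2 and the genes that IL-2 induces differed in opposite directions. Il2 had 5.88, 16.4 and 19.6 CPM at high and 116, 73.7 and 70.3 CPM at low concentration. Of 21 genes for IL-2, its receptor and STAT5 targets 14 were called higher and 4 lower, with a median of 0.75. Il2rb, the receptor's β chain, had 435, 441 and 319 CPM against 161, 133 and 148 CPM (1.43 ± 0.18). Socs2, a feedback inhibitor that STAT5 induces, had 756, 609 and 635 CPM against 256, 231 and 247 CPM (1.44 ± 0.14). The high libraries all lay above the low ones in Il2rb and Socs2 and below them in Il2. Pim1, a survival kinase, was higher by 1.51 ± 0.19 and the survival gene Bcl2 by 1.58 ± 0.15. Il2ra, the α chain (CD25), had 320, 322 and 409 CPM against 169, 268 and 254 CPM (0.61 ± 0.19), a call that ended without high replicate 3 or low replicate 1.

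Other secreted factors differed in both directions. Ccl4, a chemokine gene, had 5.88, 5.47 and 9.56 CPM at high and 128, 83.4 and 77.5 CPM at low concentration, and Ccl3 was at -2.99 ± 0.54. Xcl1 was not counted at high and was counted 33 times at low concentration, at least 9.01-fold lower when the floor is 3 counts in the whole group. Il9 had 1 count against 76, which is 62.3-fold (95% counting interval 10.8 to 2491). Tnfsf11 (RANKL) had 5.04, 31 and 23.2 CPM against 158, 202 and 159 CPM (-3.05 ± 0.35). Called higher were Ccl5, at 26, 37.1 and 31 CPM against 4.69, 3.45 and 4.82 CPM (2.83 ± 0.39), Ltb, lymphotoxin β (1.19 ± 0.15), and Osm, oncostatin M (1.27 ± 0.25). These genes come from 3 lists, and Ltb is in 2 of them. Of 10 cytokine genes tested 3 were called higher and 4 lower. Of 4 chemokine genes 1 was called higher and 3 lower, and of 11 TNF ligand genes 1 and 4. Over all genes 13.9% were called higher and 12% lower. The lists name 23, 10 and 12 genes, and the rest were not tested.

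Genes of naive and central memory cells were higher in part. In a separate list of 16 homing and adhesion genes 6 were called higher and 5 lower, with a median of 0.01. Over all genes 13.9% were called higher and 12% lower. Klf2, a factor that keeps T cells quiescent and drives S1pr1, had 75.6, 64.4 and 78.3 CPM at high and 19.8, 19.6 and 29.3 CPM at low concentration. The groups lay apart, with little spread within either. S1pr1, the egress receptor, was higher by 1.30 ± 0.27. Naive cells averaged 669 CPM of Klf2, above both activated groups. Igfbp4, an insulin-like growth factor binding protein gene, was higher by 1.18 ± 0.14 and Il6ra, the IL-6 receptor, by 1.04 ± 0.22.

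Genes of the same programme did not all move. Tcf7, a factor of naive and memory cells, had 60.5, 55.3 and 44.6 CPM at high and 72.5, 65 and 45.8 CPM at low concentration (-0.20 ± 0.21). Lef1, its relative, was at 0.29 ± 0.22, Il7r at 0.12 ± 0.48 and Ccr7, the lymph node chemokine receptor, at -0.25 ± 0.12, none of them called. Their groups overlapped. Id3, an inhibitor of E proteins, was lower (-0.56 ± 0.14). In all, 10 of the 25 genes (40%) in the list of naive and central memory cells were called higher and 3 (12%) lower, with a median of 0.29. The shares of all genes were 13.9% and 12%, so only the share called higher exceeded that of all genes. Cd44, which activation raises, had 3.36, 6.08 and 11.8 CPM against 27.1, 21.3 and 18.1 CPM (-1.52 ± 0.34).

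Genes that the T-cell receptor induces differed in both directions, and more were called lower than higher. Of 31 early activation genes 6 (19.4%) were called higher and 11 (35.5%) lower (median -0.20), against 13.9% and 12% of all genes. The 4 with the smallest p, given next, were all lower. Irf8 had 45.3, 49.2 and 51.4 CPM at high and 235, 208 and 257 CPM at low concentration (-2.25 ± 0.20), and Dusp4, a MAP kinase phosphatase, had 9.24, 9.72 and 7.74 CPM against 62.6, 60.4 and 54.2 CPM (-2.73 ± 0.30). Both were tight within groups and far apart between them. Nfkbid, an atypical IκB protein gene, was at -1.61 ± 0.20 and Nfkb1 at -0.94 ± 0.16. Irf4, which reads the strength of the receptor signal, was at -0.29 ± 0.15 and not called, although its high libraries all lay below the low ones. Pdcd1 (PD-1) had 16.8, 11.5 and 11.4 CPM against 56.3, 73.1 and 43.8 CPM (-2.15 ± 0.25).

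Lineage genes differed in both directions. Of 9 effector and Th1 genes 4 were called higher and none lower, and of 14 regulatory T-cell genes 6 and none. Of 4 Th2 and Th17 genes 3 were called lower and none higher. Among 10 follicular helper genes 1 was called higher and 1 lower. Over all genes 13.9% were called higher and 12% lower. Ccr6, a receptor of Th17 cells among others, had 18.5, 11.5 and 15.5 CPM at high and 121, 109 and 91.6 CPM at low concentration (-2.83 ± 0.23). Ahr, the aryl hydrocarbon receptor, was counted 1 time at high and 70 times at low concentration, which is 57.3-fold (95% counting interval 9.96 to 2296). Gata3, the Th2 factor, was at -0.10 ± 0.20 and Foxp3, of regulatory T cells, at -0.78 ± 0.48, neither called. Tbx21, the Th1 factor, and Prdm1 (Blimp-1) were under the filter, with at most 1.82 CPM in any library. Runx3, which Th1 and cytotoxic cells use, was higher by 1.15 ± 0.21, and Lrrc32 (GARP), which anchors latent TGF-β, had 102, 86.9 and 51.9 CPM against 14.6, 15.5 and 12.5 CPM (2.48 ± 0.28).

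Among the 10 largest differences in each direction, some genes are in none of the lists described above. Itga7, an integrin α chain gene, had 84, 51 and 38.2 CPM at high and 0, 0 and 1.2 CPM at low concentration, and Matk, a Csk-related kinase gene, had 68, 41.9 and 34.6 CPM against 3.13, 5.18 and 2.01 CPM (3.81 ± 0.34). Both separated the groups by several fold. Ctsw, cathepsin W, had 1.68, 1.22 and 0.91 CPM against 14.6, 21.3 and 26.9 CPM (-4.06 ± 0.45), and Zbtb32, a zinc-finger repressor gene, was at -3.08 ± 0.25. Cd72 was at -2.78 ± 0.32, the growth factor gene Pdgfb at -2.56 ± 0.31, Lad1 at -2.49 ± 0.23 and the repressor gene Hic1 at -2.48 ± 0.25. Rpph1, the RNA of ribonuclease P, had 119, 97.2 and 110 CPM against 3248, 2663 and 2707 CPM; it is not polyadenylated as messenger RNA is, and how poly-T priming captured it was not tested.

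A further 4 genes had 3 counts or fewer in 1 group. Plcxd1, a phospholipase-like gene, had 193 counts at high and 3 at low concentration (ratio 78.6, interval 26.5 to 384.2), Stc2, a stanniocalcin gene, 115 and 2 (70.2, interval 19 to 586.6) and Nos2, inducible nitric oxide synthase, 102 and 3 (41.5, interval 13.8 to 204.6). Penk, preproenkephalin, had 2 and 111 counts, a ratio of 45.5 the other way (12.3 to 380). These intervals cover counting error only.

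The sorted cells carried CD4 T-cell RNA in every library. The 12 CD4 T-cell markers summed to 6053 to 6681 CPM at high and 4435 to 4772 CPM at low concentration, with Cd2, an adhesion receptor gene, called higher by 1.74 ± 0.13, Thy1 by 0.77 ± 0.14 and Cd4 at -0.35 ± 0.14. In bulk libraries fewer cells of a type and less RNA per cell cannot be told apart. Markers of other cells were low in both groups, apart from Cst3 in the myeloid list. Of 10 B-cell markers 8 were at 0 in all 6 libraries, Ms4a1 among them. The B-cell sum was 6.08 to 9.24 CPM at high and 7.82 to 12.9 CPM at low concentration. CD8 and NK markers summed to 21.9 to 33.7 and 17.8 to 26.1 CPM with 5 of 12 at 0, and red cell and platelet markers to at most 1.22 CPM with 12 of 13 at 0. Myeloid markers summed to 176 to 216 and 160 to 190 CPM with 4 of 15 at 0, Lyz2 and Itgax among them. Cst3 made up most of that sum, at 209, 171 and 171 CPM at high and 184, 148 and 153 CPM at low concentration. Naive cells averaged 262 CPM of Cst3. Lung epithelial markers summed to 9.56 to 13.4 CPM at high and 4.17 to 8.06 CPM at low concentration, with Sftpc at 0. Most markers of other cells were under the filter and could not be called. Tested were 1 B-cell, 3 CD8 and NK, 5 myeloid, 0 red cell and platelet and 1 lung epithelial marker, and none of them was called.

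The 48 h difference was then set in time. At 18 h 173 genes were called between the concentrations (1.87%), at 30 h 791 (8.56%, of which 4.63% higher and 3.93% lower at the high concentration), at 48 h 2397 (25.9%) and at 72 h 2447 (26.5%). The hypoxia-induced genes had a median of -0.02 at 18 h, 0.65 at 30 h, 2.80 at 48 h and 2.95 at 72 h. Glycolytic enzymes went from 0.05 and 0.50 to 1.10 and 1.42. Type I interferon genes stood at 0.36 and 0.28 and then at 1.46 and 1.76. Ribosome biogenesis had -0.01, -0.27, -0.77 and -0.60, and DNA replication went from 0.79 at 18 h through 0.21 and -0.13 to -1.18. Cholesterol synthesis had 0.34, 0.77, 0.92 and 1.31. The list for IL-2, its receptor and STAT5 targets was above 0 at 48 h only among these 4 times, at -0.07, -0.17, 0.75 and -0.13.

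**Figure D4:**
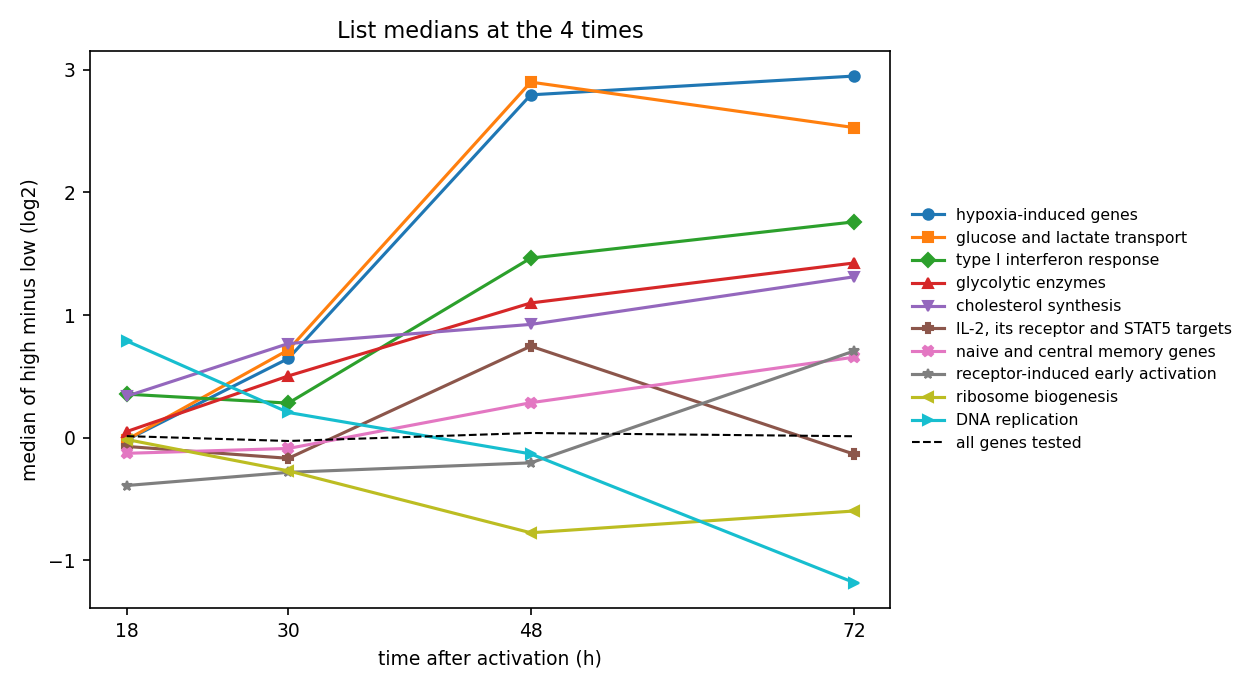
Median difference of high minus low (log2) over the tested members of 10 gene lists at 18, 30, 48 and 72 h, with the median of all genes as a dashed line. Each time has its own libraries, 3 per group except 2 for the low concentration at 72 h; hypoxia-induced genes go from -0.02 at 18 h to 2.80 at 48 h, and DNA replication genes from 0.79 to -0.13.

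Tested gene by gene, the difference at 48 h departed from that at 30 h in 1195 genes (12.9%), in 575 (6.22%) towards the high and in 620 (6.71%) towards the low concentration. Egln3 was not called at 30 h (0.54) and Slc2a3 was at 0.72, and the change to 48 h was 4.04 ± 0.35 and 3.09 ± 0.28. Slc16a3, by contrast, was at 2.94 by 30 h, and its change of 0.64 was not called. Of the hypoxia-induced genes 12 of 24 had a larger difference at 48 h than at 30 h and none a smaller one. Il2 and Ccl4 were at -0.28 and -0.04 at 30 h, and the change was -2.26 and -3.67. Irf8, Dusp4 and Ctsw were already at -2.61, -2.38 and -4.73 at 30 h, with no called change to 48 h.

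Between 48 and 72 h the difference moved in 1161 genes (12.6%), 729 of them (7.89% of all genes) higher and 432 (4.68%) lower at 48 h relative to 72 h. With a term for the second number this count was 296, and it was 771 without low replicate 2 of 48 h and 556 or 668 without low replicate 1 or 2 of 72 h. At 72 h every high library has number 1 and every low library number 2, so number and concentration coincide there. Socs2 was higher by 1.44 at 48 h and stood at -1.14 at 72 h, a change of 2.58 ± 0.20. Gadd45b, a stress gene, was at -1.64 at 48 h and 0.94 at 72 h. In DNA replication 19 of 28 genes had a higher difference at 48 h than at 72 h and none a lower one. Egln3, Slc2a3 and Slc16a3 showed no called change from 48 to 72 h. Other hypoxia-induced genes did change: of 24 tested, 5 had a higher difference at 48 h than at 72 h and 3 a lower one. Anxa2 and Ndrg1 were among the higher ones, by 1.81 and 1.10.

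Many genes that separated the concentrations also changed with time in the low cultures alone, in libraries that the 48 h comparison does not hold. Between 30 and 72 h at the low concentration 20.6% of all tested genes rose and 18.4% fell. Of the 1286 genes higher at the high concentration at 48 h, 691 (53.7%) rose in that interval and 63 fell, and the 691 are 36.4% of all that rose. Of the 1111 genes lower at the high concentration, 672 (60.5%) fell and 34 rose, and the 672 are 39.5% of all that fell. Klf2 and Bcl2 rose there by 2.99 and 1.96, while Srm, Il2 and Irf8 were at -2.27, -4.49 and -3.08. The hypoxia-induced genes were mixed there, with 8 of 24 rising, 5 falling and a median of 0.45. Anxa2, P4ha2 and Ndrg1 rose by 3.32, 1.94 and 1.89, and the lactate exporter gene Slc16a3 by 1.45. Slc2a3 was at 0.12 and Bnip3 at 0.47, neither called, and Egln3 fell (-0.98). Bst2, Ccr6 and Cdkn1a fell, and Eno3 with them (-1.87). The low group at 72 h has 2 libraries, and without the first of them 2372 genes in place of 3601 were called in this interval.

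CD62L positive cells were set against CD62L negative ones at 48 h in the same way. Of all genes 7.23% were higher and 7.28% lower in the positive cells, 1341 in all. That count was 844 with a term for the second number, 818 without replicate 2 of the negative cells and 847 without replicate 3 of the positive ones. Of the 1286 genes higher at the high concentration 304 (23.6%) were higher in CD62L positive cells and 45 lower, and the 304 are 45.5% of that list. Of the 1111 genes lower at the high concentration 295 (26.6%) were lower in CD62L positive cells and 15 higher, and the 295 are 43.8% of that list. Il2 and Ccl4 were lower in the positive cells, at -5.98 and -5.60, as were Cdkn1a (-2.31) and Lad1 (-2.74), and Il2rb and Igfbp4 were higher, by 0.74 and 1.41. Egln3, Slc2a3, Slc16a3 and Ndrg1 were not called between the sorts, at -0.36, -0.09, 0.01 and 0.40. The share of CD62L positive cells in the high and low cultures was not measured here, and its part in the 48 h difference was not tested.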

How the data were processed

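RNA was captured with oligo(dT) and copied from the 3′ end with poly-T primers that carry molecular identifiers, and libraries were pooled after their cDNA had been equalised by qPCR of the actin gene, per the labels' protocols. The values are the authors' deposited raw counts per gene symbol. Named in the submitters' processing notes are HTSeq 0.9.1, STAR 2.5.2b, HISAT 0.1.5, bcl2fastq 2.17.1.14 and FastQC 0.11.7, with the mouse build mm9. No source used here gives the annotation, the strand setting or whether molecular identifiers were collapsed.

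The 38 libraries of experiment 2 were fitted together in edgeR 4.0.16 (R 4.3.3) with 1 coefficient for each of its groups, TMM normalisation, filterByExpr (minimum count 10) and glmQLFit with robust estimation (9239 genes, 25 residual degrees of freedom). Each SE was obtained by dividing the log2 difference by the root of its F value. Benjamini-Hochberg adjustment ran over all 9239 genes of a comparison. Counts were also simulated from each gene's mean over all libraries of the experiment, with 1 common dispersion for all genes. There 59.1% of genes changed by 1 log2 unit and 91.1% of those changed by 2 were recovered at 48 h. Of 159 calls 12 were false. The real genes differ in spread and between groups, so these rates may not hold for the data. A fold against 0 counts is a bound that takes 3 counts in the whole group as floor, and with 1 to 3 counts a ratio with an exact 95% interval.

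The gene lists and the libraries compared were chosen with earlier results of these data known. Genes were named by a rule: called, at or above the median level and with groups that do not overlap, the 10 largest differences in each direction; the 4 smallest p per list; the 5 smallest p per test of change in time; a set of T-cell genes; and genes with 3 counts or fewer in 1 group and over 100 in the other. Asns, Atf4, Bst2, Ddit4, Ldha, Pim1, Pkm, Sqle, Stat2 and Vegfa fall outside it and were added after their values were seen. Promoter sequences are RefSeq's, on GRCm38.p6. Alternatives were other size factors, DESeq2 1.42.0, no filter, the compared groups alone, a replicate block, a term for the second number, and leaving out libraries. Experiment 1 was not used. A few genes that the rule names are not reported here.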

Additional observations from a re-analysis of the deposited data

Results flagged for a closer look

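In 11 tests the difference between concentrations at 48 h departed from the difference at another time by the test of that change itself (edgeR, Benjamini-Hochberg adjusted over all genes). From 30 to 48 h the change was 4.04 for Egln3, 3.47 for Ndrg1 and 3.09 for Slc2a3, all towards the high concentration. It was -4.19 for Rpph1, -3.67 for Ccl4 and -2.26 for Il2, towards the low one. Relative to 72 h, the difference at 48 h was higher by 2.58 for Socs2, 3.33 for Hmgn2, a nucleosome-binding protein gene, 2.26 for Drc1, of a ciliary dynein complex, and 2.16 for Kbtbd11, a kelch-domain protein gene, and it stood at -2.57 for Gadd45b. The 72 h values share their second title number with concentration, so for the last 5 genes the number and concentration cannot be told apart at 72 h. Of 127 genes in the text, 81 had a called change against 30 h and 52 against 72 h. Over all genes tested the shares were 12.9% and 12.6%. The genes in the text were mostly chosen by their 48 h difference or by these tests, so their counts are no measure of how common such changes are.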

How the results depend on the processing

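At 48 h 2397 genes were called, and 1827 to 2408 under other size factors, DESeq2, no filter, the block or the second number. They were 1488 (803 higher and 685 lower) with the compared groups only and 917 (431 and 486) with low replicate 1 as the only low library. Leaving out 1 library gave 1740 to 2376, with 916 to 1243 higher and 824 to 1133 lower. The change against 30 h (1195) was 872 to 1178 with 1 library left out. The change against 72 h (1161) was 296 with the second number as a factor and 556 to 1512 with 1 library left out. For the low cultures from 30 to 72 h (3601) leaving out gave 2372 to 3542. For CD62L (1341) the second number gave 844 and leaving out 818 to 1480. Fewer libraries enter some of these fits; the cause of each change was not tested. No label says that the replicate number marks a shared mouse or culture, so the numbers were not taken as pairs. Same-numbered libraries of the 2 groups had correlations of deviations of 0.28, -0.03 and 0.23, and differently numbered ones -0.36 to 0.22. With so few libraries these values do not settle whether the numbers are pairs. The replicate block gave 2398 calls. Of 113 named genes called at 48 h, 98 kept their call under each of the 14 alternatives in which they were tested, and 0 reversed. With the compared groups only, 111 of the 113 were tested. Most were named for a large difference or small p in the same fit, so this does not describe all calls. Of all 2397 calls, 1472 were shared in the same direction with the compared groups only and 1694 with the second number. Among uncalled genes the sign changed for Gata3 (-0.10), which was at 0.14 with the second number, 0.18 with low replicate 1 alone and -0.41 to 0.066 with 1 library left out. Leaving out 1 library also gave both signs for Hif1a (-0.21 to 0.33), Il7r (-0.97 to 0.54) and Sqle (-0.14 to 0.24), and low replicate 1 alone gave -0.14 for Lef1 and -0.24 for Myc.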
